A study of Mus musculus with 15 samples.

Results

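The ephrin-B and EphB family was followed through development of the mouse secondary palate as 8 genes, the ligand genes Efnb1, Efnb2 and Efnb3 and the receptor genes Ephb1, Ephb2, Ephb3, Ephb4 and Ephb6. They were picked by name from the 54232 genes of the count table, not by their values, though with earlier results of these data known. All 8 passed the filter on low counts with the 22151 genes tested. RNA was sequenced in bulk from dissected palatal shelves of wild-type mice at 4 embryonic stages, E13.5 (embryonic day 13.5) to E16.5 at intervals of 1 day, and at birth (P0), with 3 libraries per stage. Each library was a pool of palates from 3 embryos. Strain, sex and treatment of the animals were not given in the sources used here. The series aims to define how gene expression in the secondary palate changes over time, and the stages were compared for that purpose.

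Ephrin-B ligands are transmembrane proteins that bind EphB receptor tyrosine kinases on a touching cell. Binding signals in both directions, forward into the receptor cell and in reverse into the ligand cell, and commonly leads cells to repel, attach or sort into separate territories. In the developing palate the family is known for its part in shelf growth and fusion: Efnb1 mutant mice, and mice that lack Ephb2 and Ephb3 together, have cleft palate, and changes in human EFNB1 cause craniofrontonasal syndrome. Outside the palate the same molecules guide axons and separate arteries from veins.

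Depth ranged from 21.5 to 69.0 M (1e6) counts per library, with a median of 61.0 M. The lowest count of any member in any library was 278, for Ephb1, so none was limited by detection. All 8 markers of palate mesenchyme (Prrx1, Twist1, Pdgfra, Osr2, Tbx22, Pax9, Msx1 and Osr1) had counts in all 15 libraries, and their summed level went from 1110 CPM at E13.5 to 442 CPM at P0 (CPM, counts per 1e6 after normalization). The 8 neuron markers summed to between 799 and 5400 CPM and were highest at E14.5, and several libraries stood apart in markers of tissue outside the palate. Replicate 1 of E14.5 had 399.5 CPM of posterior Hox transcripts and 1409 CPM of choroid plexus markers, against 92.2 and 31.1 CPM in replicate 2, and 17.1 and 774 CPM in replicate 3. At P0 choroid plexus markers summed to 60.8, 489 and 256 CPM. Replicate 2 of E13.5 had 287 CPM of brain markers against 60.7 and 25.0 CPM in the others. Replicate 3 of E16.5 had 85.7 CPM of them against 6.22 and 7.28 CPM. Summed lymphocyte markers were at most 3.33 CPM in any library, and Cd8a had 0 counts in all 3 libraries at E14.5. Since the pools are not described as separate litters, p-values measure the spread between these libraries only.

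All 8 genes changed over the 5 stages and all 8 were lowest at P0 (F test over stages in edgeR, adjusted p from 6.85e-06 for Efnb3 to 0.0437 for Ephb4). Of all genes tested, 59.1% passed the same test. Efnb1, Efnb2, Ephb3 and Ephb4 had their highest mean at E13.5, and Efnb3, Ephb1, Ephb2 and Ephb6 at E14.5. The call for Ephb4 was weak: it held in 7 of 23 alternative fits, and the adjusted p reached 0.165 without replicate 3 of E13.5. The call for Ephb6 held in 19 of 23. Over the 10 pairs of stages, 41 of the 80 tests of a member passed, and in all 41 the later stage was the lower. The shares of all genes are given below by pair, and no pair had more than 27.9% of all genes called lower. RNA of whole tissue cannot tell fewer cells of a type from less RNA per cell.

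**Figure D1:**
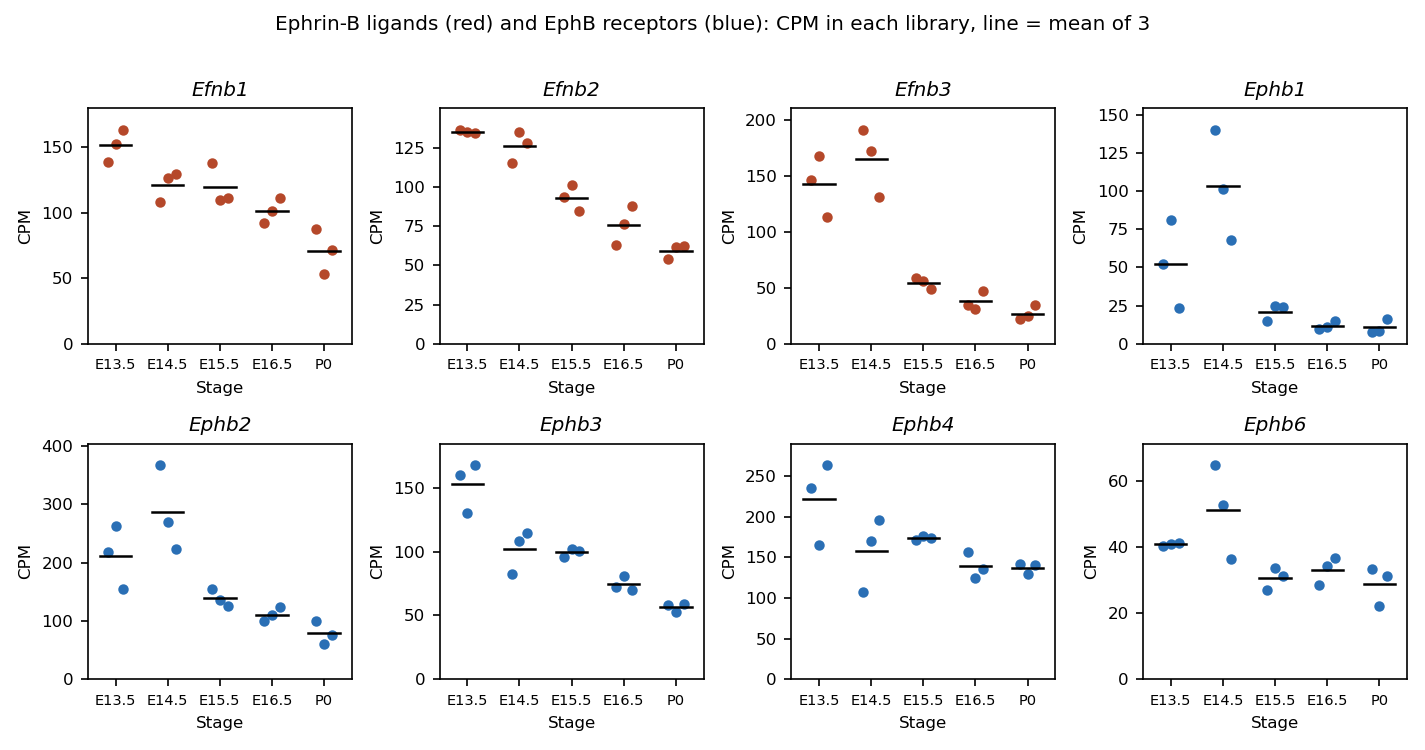
CPM (vertical axis, linear from 0) of each ephrin-B ligand gene (red) and EphB receptor gene (blue) by stage (horizontal axis), with 1 point per library and a line at the mean of 3 libraries. Efnb3 is at 113 CPM or more in all 6 libraries of E13.5 and E14.5 and at most 59.0 CPM from E15.5 on, Ephb1 and Ephb2 are highest at E14.5 with 1 library of E13.5 at the level of E15.5, while Efnb1, Efnb2 and Ephb3 step down more evenly and Ephb4 stays between 108 and 264 CPM.

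Among the ligands, Efnb1 (ENSMUSG00000031217.8, GRCm38 chrX:99136130-99148991, plus strand) encodes ephrin-B1, the X-linked ligand of craniofrontonasal syndrome. Its levels were 139, 152 and 163 CPM in the 3 libraries at E13.5, 108, 126.5 and 129.5 CPM at E14.5, 138, 109 and 111 CPM at E15.5, 91.9, 101 and 111 CPM at E16.5, and 87.7, 53.1 and 71.8 CPM at P0. The E13.5 libraries were above all those of E14.5, E14.5 and E15.5 overlapped, and P0 lay below every other library. From E13.5 to P0 Efnb1 fell 2.13-fold (log2 change -1.09 ± 0.17 SE, adjusted p = 0.000185). From E14.5 to E15.5 the change was -0.02 (95% interval -0.38 to 0.34), the smallest of the 3 ligands. The libraries differed in sex make-up, with Xist between 1.54 and 1537 CPM and no E16.5 library above 0.166 CPM in Ddx3y, Eif2s3y, Kdm5d or Uty, and the part of sex in the level of this X-linked gene was not tested.

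Efnb2 (ENSMUSG00000001300.16, chr8:8617434-8661242, minus strand) encodes ephrin-B2, the ligand that marks arterial endothelium and is also made by mesenchyme. It measured 136, 135 and 134 CPM at E13.5, 115.5, 135 and 128 CPM at E14.5, 93.4, 101 and 84.3 CPM at E15.5, 63.2, 76.3 and 87.7 CPM at E16.5, and 54.1, 61.5 and 62.6 CPM at P0. The libraries of E13.5 and E14.5 overlapped, those of E15.5 lay below them, E16.5 overlapped E15.5, and P0 lay below all others. The decline from E13.5 to P0 was 2.28-fold (log2 -1.19 ± 0.12, adjusted p = 1.46e-05). The summed level of 8 endothelium markers rose from 412 CPM (344 to 456) at E13.5 to 646 CPM (516 to 759) at P0. Of these, 5 of the 8 passed the test as higher, as did 29.8% of all genes. That of the 8 palate mesenchyme markers fell from 1110 to 442.5 CPM, with 6 of 8 called lower, where 26.8% of all genes were. The part of either cell type in the level of Efnb2 was not tested.

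Efnb3 (ENSMUSG00000003934.5, chr11:69554092-69560205, minus strand) encodes ephrin-B3, known as a midline barrier to axons in the spinal cord. Its levels were 146, 167.5 and 113 CPM at E13.5, 191, 172 and 131 CPM at E14.5, 59.0, 56.2 and 49.0 CPM at E15.5, 35.1, 31.3 and 47.6 CPM at E16.5, and 22.3, 24.5 and 34.4 CPM at P0. All 6 libraries of the first 2 stages lay above all 9 later ones. Between E13.5 and P0 it fell 5.26-fold (log2 -2.40 ± 0.22, adjusted p = 7.66e-06), more than the other ligands, though the difference in fold between the genes was not tested.

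Per kilobase of exon, which allows levels of different genes to be compared, Efnb3 and Efnb1 were the most abundant ligands at E13.5, at 44.7 ± 8.64 and 43.8 ± 3.50 CPM per kb (SD, n = 3), and Efnb2 stood at 19.7 ± 0.155. At P0 Efnb1 led with 20.5 ± 5.02 CPM per kb, and Efnb2 and Efnb3 stood at 8.66 ± 0.676 and 8.5 ± 2.03. The share of Efnb3 in the summed ligand level was 48.9% ± 6.57 at E14.5 and 26.3% ± 1.07 at E15.5. That of Efnb1 moved from 33.5% ± 4.81 to 52.9% ± 3.08 over the same step. Neither share overlapped between the stages, and the exact two-sided permutation test gave p = 0.10 for each, the smallest that 3 libraries against 3 allow (0.122 adjusted over 22 such quantities).

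Among the receptor genes, Ephb1, Ephb2 and Ephb6 had their highest mean at E14.5 and Ephb3 and Ephb4 at E13.5, and none differed between these stages by the test. The promoters of 4 genes are shown because they set side by side the 2 receptor genes with the largest decline at E15.5 (Ephb1 and Ephb2), a ligand gene with a small decline (Efnb2) and a receptor gene with none called (Ephb4). The 250 bases before the RefSeq start are given 5′ to 3′ on the gene's strand (GRCm38.p6), with capitals at 2 motifs on either strand, the CCAAT box with the letters CCAAT and the GC box with the letters GGGCGG. They lie at chr9:102354694-102354943, chr4:136836013-136836262, chr8:8661243-8661492 and chr5:137349859-137350108.
Ephb1: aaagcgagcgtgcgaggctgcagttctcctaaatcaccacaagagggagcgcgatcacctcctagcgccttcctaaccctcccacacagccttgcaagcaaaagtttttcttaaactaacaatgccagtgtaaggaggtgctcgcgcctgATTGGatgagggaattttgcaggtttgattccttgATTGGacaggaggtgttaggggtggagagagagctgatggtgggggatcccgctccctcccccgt
Ephb2: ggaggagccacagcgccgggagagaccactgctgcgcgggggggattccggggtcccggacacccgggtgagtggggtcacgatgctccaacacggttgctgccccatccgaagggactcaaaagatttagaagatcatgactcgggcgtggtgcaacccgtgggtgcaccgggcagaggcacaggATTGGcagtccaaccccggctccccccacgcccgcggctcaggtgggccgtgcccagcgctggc
Efnb2: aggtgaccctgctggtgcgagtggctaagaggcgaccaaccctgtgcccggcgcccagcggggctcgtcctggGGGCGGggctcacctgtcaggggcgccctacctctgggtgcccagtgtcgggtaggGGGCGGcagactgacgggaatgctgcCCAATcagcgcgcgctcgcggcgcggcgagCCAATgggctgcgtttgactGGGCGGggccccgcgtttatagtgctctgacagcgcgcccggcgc
Ephb4: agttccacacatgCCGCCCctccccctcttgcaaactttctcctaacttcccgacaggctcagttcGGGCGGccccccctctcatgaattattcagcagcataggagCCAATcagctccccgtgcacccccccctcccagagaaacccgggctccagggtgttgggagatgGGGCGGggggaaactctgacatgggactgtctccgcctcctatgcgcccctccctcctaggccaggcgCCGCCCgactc

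The CCAAT box occurred 2 times in the window of Ephb1 and of Efnb2 and 1 time in that of Ephb2 and of Ephb4. The GC box occurred 3 times in Efnb2 and 4 times in Ephb4, and these letters were not in the windows of Ephb1 and Ephb2. RefSeq windows were matched for 7 of the 8 genes, the exception being Efnb3. In the remaining windows Efnb1 held 1 CCAAT box and no GC box, and Ephb3 held 2 GC boxes and Ephb6 5. Whether the number of GC boxes goes with the decline at E15.5 was not tested. Ephb6, with the most, was called lower (log2 -0.74), and Efnb1, with none, was not (log2 -0.02). Ephb1 and Ephb2, also with none, were called lower (-2.29 and -1.05), as was Efnb2 with 3 (-0.44). Ephb4 with 4 (0.14) and Ephb3 with 2 (-0.03) were not called. Of all 32851 windows of that length, 33.9% held CCAAT and 32.7% held GGGCGG on either strand. The letters CTTTGAT, a form of the site of the Wnt-responsive TCF factors, were in none of the 7 (3.2% of all windows). All 7 windows were richer in CpG than the median window (observed over expected 0.50 to 0.844, against 0.374). These are matches of letters only.

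Ephb1 (ENSMUSG00000032537.15, chr9:101922128-102354693, minus strand) encodes a receptor known for routing retinal axons at the optic chiasm. It varied widely between libraries of a stage, with 52.4, 81.2 and 23.4 CPM at E13.5, 140.1, 101 and 68.0 CPM at E14.5, 14.7, 24.8 and 23.8 CPM at E15.5, 9.88, 10.8 and 14.8 CPM at E16.5, and 7.91, 8.48 and 16.3 CPM at P0. All 3 libraries of E14.5 lay above all later ones, while the lowest of E13.5 fell within the range of E15.5. From E14.5 to E15.5 it fell 4.88-fold (log2 -2.29 ± 0.44, adjusted p = 0.00405). From E13.5 to P0 it fell 4.82-fold (log2 -2.27 ± 0.44, adjusted p = 0.000943).

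Ephb2 (ENSMUSG00000028664.14, chr4:136647539-136835988, minus strand) encodes a receptor that acts in palate fusion and in axon guidance. Its levels were 218, 263 and 155 CPM at E13.5, 367, 271 and 224 CPM at E14.5, 155, 136 and 126 CPM at E15.5, 99.3, 109 and 123 CPM at E16.5, and 99.2, 59.5 and 76.5 CPM at P0. Between E14.5 and E15.5 it fell 2.07-fold (log2 -1.05 ± 0.23, adjusted p = 0.00791), with no overlap. Over the whole span it fell 2.70-fold (log2 -1.43 ± 0.24, adjusted p = 0.000289).

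Ephb3 (ENSMUSG00000005958.15, chr16:21204755-21223305, plus strand) encodes the receptor that acts with EphB2 in palate closure. It measured 160, 130.5 and 168 CPM at E13.5, 82.7, 108 and 115 CPM at E14.5, 96.0, 102 and 101 CPM at E15.5, 72.3, 80.7 and 69.7 CPM at E16.5, and 58.4, 52.8 and 59.2 CPM at P0. All E13.5 libraries were above those of E14.5, yet this step did not pass the threshold (log2 -0.58 ± 0.13, unadjusted p = 0.000719, adjusted p = 0.111). The libraries of E14.5 and E15.5 overlapped (log2 -0.03, 95% interval -0.32 to 0.25). Over the span Ephb3 fell 2.69-fold (log2 -1.43 ± 0.13, adjusted p = 7.93e-06), a change of the same size as in Ephb2.

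Ephb4 (ENSMUSG00000029710.15, chr5:137350109-137378669, plus strand) encodes the receptor of venous endothelium, the usual partner of ephrin-B2. Its levels were 236, 166 and 264 CPM at E13.5, 108, 171 and 196 CPM at E14.5, 172, 176 and 174 CPM at E15.5, 156, 124.5 and 136 CPM at E16.5, and 142, 129.5 and 141 CPM at P0. The first 2 stages were wide and overlapped each other and E15.5. P0 lay below E13.5 in all libraries, a decline of 1.61-fold (log2 -0.69 ± 0.20, adjusted p = 0.0121), which did not pass without replicate 2 of P0 (adjusted p = 0.0531), the P0 library with the most choroid plexus transcripts (489 CPM). The gene's last bases overlap Zan on the other strand, and fragments were counted by strand.

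Ephb6 (ENSMUSG00000029869.7, chr6:41605482-41620509, plus strand) encodes a receptor without kinase activity that signals through its partners. It measured 40.5, 41.1 and 41.2 CPM at E13.5, 64.9, 52.9 and 36.3 CPM at E14.5, 26.9, 33.8 and 31.3 CPM at E15.5, 28.4, 34.2 and 36.8 CPM at E16.5, and 33.4, 22.1 and 31.3 CPM at P0. The first stage was tight and the second wide. The decline from E13.5 to P0 was 1.41-fold and just missed the threshold (log2 -0.50 ± 0.20, adjusted p = 0.0524).

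On the per-length scale Ephb4 had the highest mean of the receptors at every stage and led in all libraries except replicate 1 of E14.5, where it held 22.7% and Ephb2 28.6%. It went from 47.8 ± 10.9 CPM per kb at E13.5 to 29.7 ± 1.52 at P0, and held 34.1% ± 10.6 of the summed receptor level at E14.5 and 55.5% ± 2.73 at P0. Ephb1 had 14.6% ± 4.81 at E14.5, 4.03% ± 0.991 at E15.5 and 2.89% ± 1.13 at P0. Ephb2 was at 22.6% ± 5.32, 14.8% ± 1.80 and 11.5% ± 2.00 at these stages. Ephb3 held between 15.3% and 21.7% and Ephb6 between 10.3% and 14.6% in stage means. The libraries of E14.5 and E15.5 did not overlap in the shares of Ephb1, Ephb2, Ephb3 and Ephb4, and did in that of Ephb6.

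Summed over each class, ligand and receptor transcripts were about equal at E13.5, at 108 ± 7.26 and 106.0 ± 6.31 CPM per kb. At P0 the ligands stood at 37.7 ± 4.90 and the receptors at 53.7 ± 5.24. The ratio of ligand to receptor sum started from 1.03 ± 0.132 (E13.5) and 1.05 ± 0.0333 (E14.5), went to 0.877 ± 0.0986 (E15.5) and 0.868 ± 0.106 (E16.5), and ended on 0.701 ± 0.0273 (P0). All 3 ratios at P0 were below all 3 at E13.5 (exact two-sided permutation p = 0.10, adjusted 0.122, the smallest p that the design allows).

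**Figure D2:**
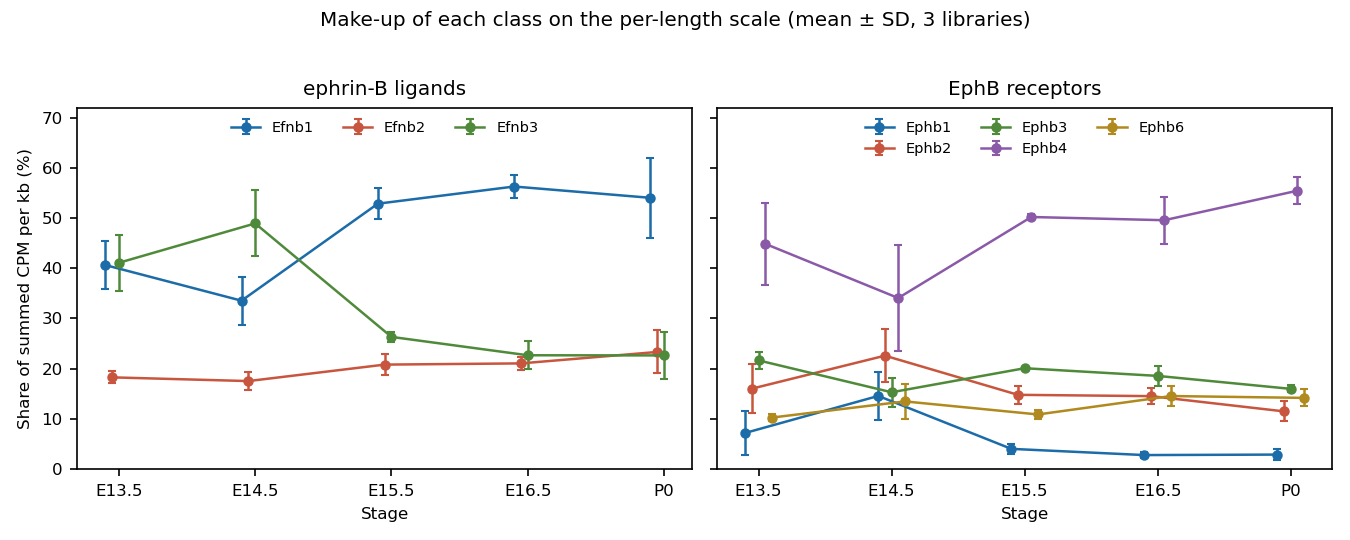
Share of each gene in the summed CPM per kb of its class (vertical axis, percent) by stage (horizontal axis) for ligands (left) and receptors (right), with mean and SD of 3 libraries. Efnb3 and Efnb1 change places between E14.5 (48.9% and 33.5%) and E15.5 (26.3% and 52.9%), and Ephb4 has the highest mean share of the receptors at each stage.

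Taking the steps in turn, no member passed the test between E13.5 and E14.5, when shelves elevate and meet, and 0.00903% of all genes did (edgeR quasi-likelihood test, adjusted p under 0.05). At an unadjusted p under 0.05 there were 3 members, Ephb1 (log2 0.98, 95% interval 0.06 to 1.90), Ephb3 and Ephb4 (log2 -0.49, -0.93 to -0.05), so 1 higher and 2 lower, where 10.3% of all genes were higher and 5.72% lower at that p. DESeq2 called 1 member, Ephb3, and 5.13% of all genes. With 4 members higher and 4 lower their median was 0.06, against 0.02 over all genes tested.

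From E14.5 to E15.5 Efnb2, Efnb3, Ephb1, Ephb2 and Ephb6 fell and no member rose, so that 5 of 8 were called lower, where 13.4% of all genes were called lower and 26.1% in either direction. The same 5 were those whose libraries did not overlap, as in 27.2% of all genes that were lower without overlap. Efnb3 fell 3.01-fold (log2 -1.59 ± 0.22, adjusted p = 0.000851), Ephb6 1.67-fold (log2 -0.74 ± 0.20, adjusted p = 0.0199) and Efnb2 1.36-fold (log2 -0.44 ± 0.12, adjusted p = 0.0212). Efnb1, Ephb3 and Ephb4 (log2 0.14, 95% interval -0.30 to 0.58) were not called. The members' median was -0.59, against 0.03 over all genes. Only 3 of the 5 calls passed without replicate 2 of E14.5, and likewise without replicate 3 of E15.5: Efnb2 (adjusted p = 0.0772 and 0.0893) and Ephb6 (0.0587 and 0.0579) were lost in both. The share of all genes called lower was then 7.92% and 6.06%. Over 24 alternative fits the call of Efnb3 held in all, those of Ephb1 and Ephb2 in 23, that of Ephb6 in 18 and that of Efnb2 in 17. The tissue changed in other markers at this step. The summed level of 8 osteoblast markers, most of it Col1a1, went from 1701 CPM at E14.5 to 15690 CPM at E15.5. Of these markers 7 were called higher, as were 12.7% of all genes, and their part in the members' changes was not tested.

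No member was called between E15.5 and E16.5, a step at which 1.41% of all genes passed, nor between E16.5 and P0, at which 0.352% did (edgeR, adjusted p under 0.05). At an unadjusted p under 0.05 there were 3 members at the first of these steps (Efnb2, Efnb3 and Ephb3) and 4 at the second (Efnb1, Efnb2, Efnb3 and Ephb3), all lower, where 9.64% and 6.10% of all genes were lower at that p. DESeq2 called 1 and 0, the 1 being Ephb3 (adjusted p = 0.0339), and 10.3% and 3.19% of all genes. The members' medians were -0.33 and -0.37 on the log2 scale, with 7 and 8 of 8 lower, against -0.00078 and 0 over all genes.

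Across the whole span from E13.5 to P0, 7 of 8 members fell, all but Ephb6, where 26.8% of all genes were called lower and 56.6% in either direction. All 8 had P0 libraries below all E13.5 libraries, as 28.9% of all genes did. Their median was -1.31, against 0.03 over all genes. The other wide pairs gave 4 members lower at E15.5 than at E13.5 (all genes, 9.18%), 7 at E16.5 than at E13.5 (23.0%), 6 at E16.5 than at E14.5 (22.8%), 7 at P0 than at E14.5 (27.9%) and 5 at P0 than at E15.5 (10.8%). Comparisons that share a stage share its libraries and are not independent.

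**Figure D3:**
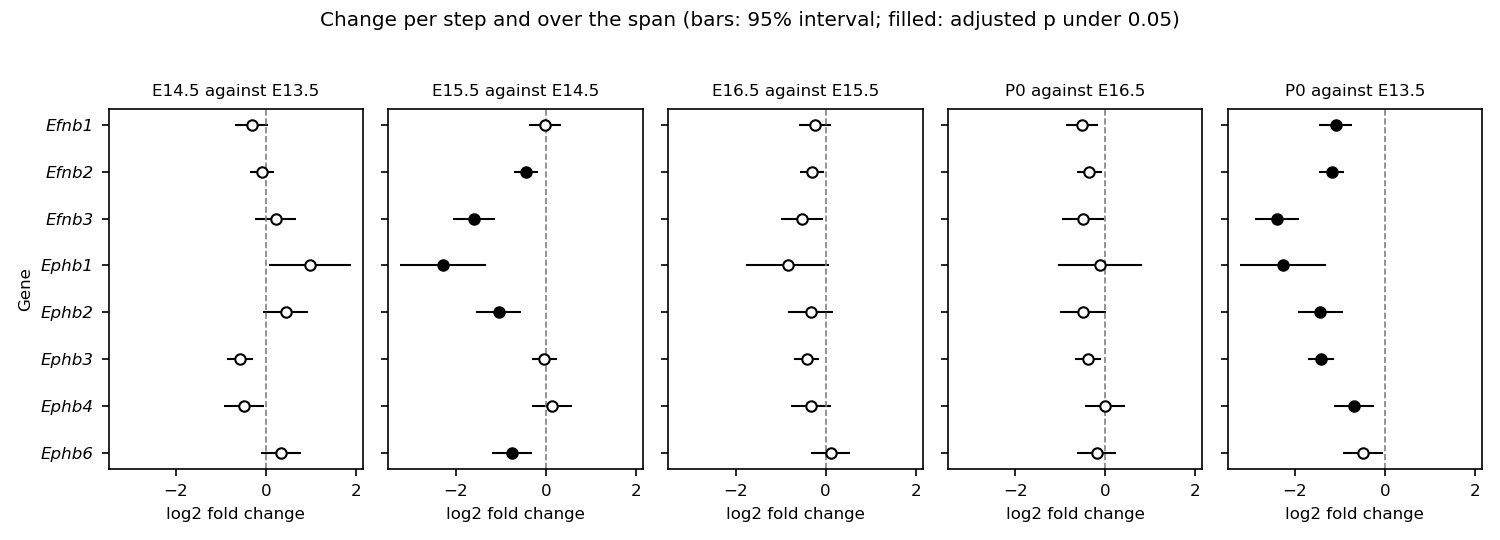
log2 fold change (horizontal axis, later stage against earlier) of each member (vertical axis) for the 4 steps and for P0 against E13.5, with 95% intervals, and filled circles where the adjusted p was under 0.05. The calls of single steps are all at E15.5 against E14.5 (5 of 8), and 7 of 8 are filled over the whole span.

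Ordered by mean level, the stages of a member seldom differed from their neighbours in the order: 3 of 32 neighbouring pairs passed the test. These were E14.5 above E15.5 for Efnb2 (adjusted p = 0.0212), and E13.5 above E15.5 for Efnb3 (0.00106) and for Ephb1 (0.0432). The last held in 7 of 23 alternative fits. It was farthest from the threshold without replicate 2 of E13.5 (adjusted p = 0.207), the library richest in brain markers. No share of all genes was computed for neighbours in this order. In 3 of the 4 members highest at E14.5 (Efnb3, Ephb1 and Ephb2) the order ran E14.5, E13.5, E15.5, E16.5, P0. In Efnb1, Efnb2 and Ephb3 it followed age.

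Within E13.5 and E14.5, the levels of Efnb3, Ephb1 and Ephb2 followed the order of the libraries in neuron markers, and at later stages this held in part. The 8 neuron markers (Tubb3, Elavl3, Elavl4, Stmn2, Snap25, Dcx, Snap91 and Syt1) had counts in all libraries and summed to 1658, 2926 and 852 CPM in the 3 libraries of E13.5, 5400, 3684 and 2410 CPM at E14.5, and 1869, 1127 and 894 CPM at E15.5. Within E13.5 and within E14.5 all 3 genes ordered the libraries as the neuron markers did, and Ephb3 and Ephb4 ordered them in reverse. Summed brain markers had the order of the neuron markers at both stages and summed palate mesenchyme markers its reverse. Neither order is therefore particular to neurons, and the share of all genes with either order was not computed. At E15.5 Efnb3 and Ephb2 kept the order of the neuron markers and Ephb1 did not. At E16.5 none of the 3 genes did. At P0 Efnb3 and Ephb1 had the reverse order and Ephb2 neither. Over the 5 stages the order was that of the neuron markers in 3 for Efnb3, 2 for Ephb1 and 3 for Ephb2. Summed brain markers ordered the libraries as Ephb1 did at all 5 stages. Their order was also that of Ephb2 at E16.5 and of Efnb3 at P0. It was not particular to these 3 genes. Ephb3, Ephb4 and Ephb6 had it at E15.5, Efnb1, Efnb2 and Ephb6 at E16.5, and Efnb2 at P0. The part of brain tissue in these levels was not tested. From E14.5 to E15.5, 3 of the 8 neuron markers were called lower, where 13.4% of all genes were.

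With the mean log2 level of the neuron markers as a covariate, chosen after seeing the data, 1 of 8 members instead of 5 passed for the step from E14.5 to E15.5, namely Efnb3 (log2 -1.40, adjusted p = 0.0312). The loss of calls was general: 0.749% of all genes were called lower in this fit, against 13.4% without the covariate. Ephb1 was then at -1.72 (adjusted p = 0.138), Ephb2 at -0.47 (0.221), Ephb6 at -0.52 (0.314) and Efnb2 at -0.44 (0.157). The change of Ephb2 thus went from -1.05 to -0.47, and that of Efnb2 stayed at -0.44 while its call was lost. From E13.5 to P0, 7 of 8 passed with the covariate as without it (25.8% of all genes called lower with it). Without replicate 2 of E13.5 and replicate 1 of E14.5, 4 members passed between E14.5 and E15.5, Ephb6 being lost (adjusted p = 0.125), and 4.98% of all genes were called lower.

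**Figure D4:**
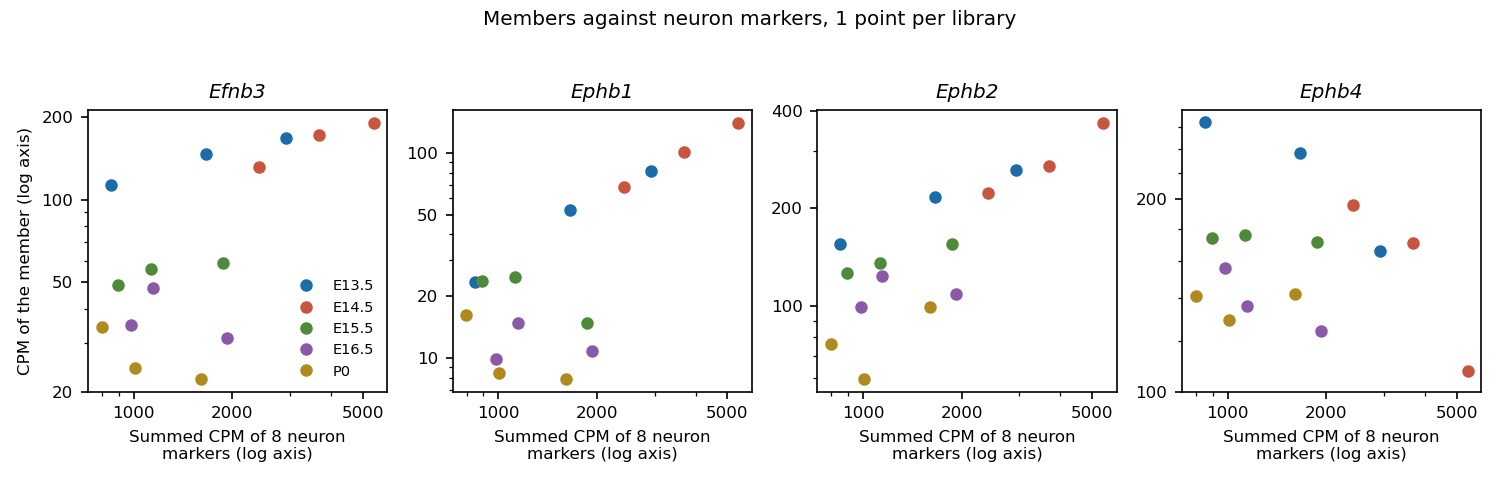
CPM of Efnb3, Ephb1, Ephb2 and Ephb4 (vertical axes, log) against the summed CPM of 8 neuron markers (horizontal axes, log), with 1 point per library coloured by stage. Within E13.5 and E14.5 the first 3 genes are higher where the markers are higher and Ephb4 is lower, and from E15.5 on all 9 libraries have at most 59.0 CPM of Efnb3.

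Likeness between genes was measured as the root mean square (RMS) difference of log2 CPM over the 15 libraries after centring each gene on its mean, among 11855 genes of at least 10 CPM. It is a description, since all genes share libraries and depth. The closest pair of members was Efnb1 and Ephb3 (RMS 0.230), then Efnb2 and Ephb3 (0.231) and Efnb1 and Efnb2 (0.260). The most distant was Ephb1 and Ephb4 (1.30). Efnb3 was nearest to Ephb2 (0.464) and Ephb1 (0.471) among the members. Ephb1 ranked Efnb3 32nd among the genes compared, the best rank of any member for another, while Efnb3 ranked Ephb1 247th. In the closest pair Efnb1 ranked Ephb3 242nd and Ephb3 ranked Efnb1 153rd.

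Genes outside the family came closer than any member did. Those most like Efnb1 were Samd1 (RMS 0.112), Dusp12 and Carm1, and those most like Efnb2 were Stag1 (0.0972), Tubgcp5 and Lig3. Efnb3 was followed by Rbm4b (0.161), Zbtb12 and Pik3r3, and Ephb1 by Elovl2 (0.269), Pbx3 and Rnf227. Nearest to Ephb2 were Dbn1 (0.157), which encodes the actin-binding protein drebrin, then Trim32 and Bcr. Ephb3 had Zfp950 (0.122), 2500004C02Rik and Igf2bp2, Ephb4 had Acsf2 (0.0959), Tcf7l1 and Dock1, and Ephb6 had Zfp444 (0.149), 1110051M20Rik and Kazn.

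The A-class relatives were described from lists of all genes named as ephrin-A ligands and of 9 EphA receptors. Between E13.5 and P0, 1 of 5 ephrin-A genes rose and 3 fell, where 29.8% of all genes were called higher and 26.8% lower. Efna1, a ligand of epithelia and vessels, rose from 21.4 to 43.9 CPM (log2 1.04 ± 0.23 SE), and Efna2 fell from 47.5 to 10.3 CPM (log2 -2.20 ± 0.22), Efna5 from 69.7 to 23.6 CPM and Efna4 from 39.2 to 14.6 CPM. Of the 9 EphA receptors 1 rose and 4 fell, beside the same shares of all genes. Epha2, a receptor of epithelia, went from 13.5 to 40.4 CPM (log2 1.58 ± 0.20), and Epha4 from 158 to 22.6 CPM (log2 -2.80 ± 0.32), Epha3 from 149 to 32.9 CPM and Epha7 from 92.3 to 21.9 CPM. Summed epithelium markers rose over the same span from 395 CPM (264 to 591) to 1711 CPM (903 to 2660), and their part in the rise of Efna1 and Epha2 was not tested.

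Efna1 and Epha2 were also the members of these lists called higher from E14.5 to E15.5 (log2 0.70 ± 0.23 and 0.93 ± 0.20), where 12.7% of all genes were. Lower at that step were 1 of 5 ligands, Efna2 (log2 -0.79 ± 0.21), and 3 of 9 receptors, where 13.4% of all genes were. The receptors were Epha5 (-1.95 ± 0.51), Epha8 (-1.47 ± 0.46) and Epha4 (-1.20 ± 0.30). No B-class ligand or receptor was called higher at the later stage in any of the 10 pairs of stages. The difference between the classes was not tested.

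Of 12 partners of ephrin-B reverse signalling, 7 fell between E13.5 and P0 and none rose, where 26.8% of all genes were called lower and 29.8% higher, with a list median of -0.38. The largest declines were in Dvl2, an adaptor of Wnt signalling (log2 -1.07 ± 0.17), Grip1, a PDZ scaffold that binds the ephrin-B tail (-1.05 ± 0.25), and Adam10, a protease that cleaves ephrins (-0.89 ± 0.14). Sdcbp (0.11 ± 0.13) and Gja1 (0.01 ± 0.39) are examples of those not called. At E15.5 against E14.5 only Src, a kinase that phosphorylates ephrin-B, was called, at -0.73 ± 0.17. That is 1 of 12 called lower, where 13.4% of all genes were called lower and 12.7% higher.

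Of 12 partners of EphB forward signalling, 8 fell and 1 rose over the span (all genes, 26.8% and 29.8%), with a median of -0.74. Kalrn, a guanine nucleotide exchange factor that links EphB2 to the actin skeleton, fell by 1.49 on the log2 scale (SE 0.27), Rasa1, a GTPase-activating protein for Ras, by 1.32 (0.20) and Itsn1, another exchange factor, by 1.23 (0.19). Sdc2, a heparan sulfate proteoglycan of dendritic spines, rose (log2 0.51 ± 0.18). Between E14.5 and E15.5, 6 fell and 1 rose (all genes, 13.4% and 12.7%), among them again Kalrn (-1.12 ± 0.27) and Itsn1 (-0.90 ± 0.19), with Vav2 (-0.77 ± 0.22) the third, and Sdc2 rising (0.61 ± 0.18). The medians of these lists are to be read beside medians of 0.03 over all genes in both comparisons.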

How the data were processed

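RNA-seq of 15 palate libraries was used as counts per gene that the authors deposited. Per the file headers, the authors made the counts with featureCounts 2.0.1, assigning fragments by strand (reverse setting) to GENCODE M18 genes. The submitters' processing notes name cutadapt 3.4, HISAT2 2.2.1 and SAMtools 1.12 and the build mm10. Symbols came from GENCODE M21, where all 8 members had the same positions. Depth was 21.5 to 69.0 M counts per library.

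Counts were tested with edgeR 4.0.16 in R 4.3.3, with TMM normalization, filterByExpr at a minimum count of 10 and 1 coefficient per stage over all 15 libraries. The quasi-likelihood F test was adjusted by Benjamini-Hochberg over 22151 genes, at 0.05. The SE is the size of the log2 change divided by the square root of F. The steps were tested on simulated counts. CPM used TMM-scaled totals, and CPM per kb the exon length in the table. Likeness used log2 CPM with a prior count of 2. Shares, class sums and ratios were compared by exact two-sided permutation tests.

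Alternatives were DESeq2 1.42.0, other scalings and filters, the libraries of 1 contrast alone, a replicate block and leaving out each library, with 2 more added after seeing the data. Named were all members in each comparison, the 3 genes most like each, and the pathway genes that passed with at least 10 CPM, up to 3 per direction. The members and lists were chosen with earlier results of these data known.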

Additional observations from a re-analysis of the deposited data

How the results depend on the processing

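No called member or count changed direction under any alternative run. Counts of members called moved by more than 1.5 times in these cases. DESeq2 called 1 member between E13.5 and E14.5 and 1 between E15.5 and E16.5, both Ephb3, where edgeR called 0. From E14.5 to E15.5 the count of 5 went to 1 with the neuron marker covariate, and leaving out each library in turn gave 3 to 5. The cause was not tested. Leaving out each library gave 7 to 8 members over the 5 stages, 6 to 8 from E13.5 to P0 (7 with all libraries), and 36 to 42 calls over all pairs of stages, against 41. Upper-quartile scaling moved the median log2 change of all genes between E14.5 and E15.5 from 0.03 to 0.16, and 4 members were then called. Without division by length the share of Efnb2 among ligands at P0 was 38.1% in place of 23.3%, and that of Ephb2 among receptors 24.8% in place of 11.5%. The labels do not say whether equal replicate numbers pair the libraries. Correlations of deviations from stage means ran from -0.303 to 0.548 between libraries of equal number. Between libraries of unequal number they ran from -0.498 to 0.426, and 7 of 15 libraries correlated best with their own number. Whether the numbers pair the libraries was not tested. With the replicate block, 7 members were called over the stages, 5 from E14.5 to E15.5, 7 from E13.5 to P0 and 0 at the other steps. Counts of at least 278 per member and library left the spread between libraries, not depth, as the limit of precision. Mean depth was lower at E16.5 and P0 than at the earlier stages, so depth goes with stage.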
